A study of Rattus norvegicus with 13 samples.

Results

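The genes described here are cell cycle genes, listed by symbol and set apart by the phase in which they act. Of 42 listed genes, 41 had a row of that symbol in the day 3 files, out of 28357 named genes, and all 41 were among the 14762 genes that passed the expression filter; the mitotic cyclin gene Ccnb2 was not found by its symbol and is not analysed here. They comprised 5 genes of G1 and the G1/S transition, 13 of S phase, 20 of G2 and mitosis, and 3 inhibitors of cyclin-dependent kinases (CDKs). RNA came from the peripheral cornea and limboscleral tissue of wild-type male Lewis rats 2 months old, where damage to the limbal stem cells had been induced so that vessels grow into the cornea. One group received spironolactone, an antagonist of the mineralocorticoid receptor, daily under the skin at 25 mg/kg/day (n = 3 libraries), and the other a vehicle of 90% olive oil and 10% DMSO (n = 3), both sampled at day 3. The labels name no uninjured group, and they do not say whether a library held 1 animal or several or whether each came from other animals than the next; a p-value here therefore covers variation among libraries, which may be technical. The day 7 libraries of the series are not analysed here. In whole tissue, fewer cells of a type and less RNA per cell cannot be told apart.

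A cell enters the cycle when cyclins of the D type, bound to CDK4 or CDK6, and then cyclin E with CDK2, inactivate the retinoblastoma protein and free the E2F transcription factors, which switch on genes of DNA replication. In S phase the MCM helicase, loaded by CDC6 and CDT1, opens the DNA, while geminin holds CDT1 back so that no origin fires again; genes of mitosis are switched on later, many of them through FOXM1 and the MuvB complex with B-MYB. In the cornea, basal and limbal epithelial cells divide to renew the surface, and stromal, endothelial and immune cells can also divide after injury.

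Totals of expected counts were 18176059 to 25311091 per library. Members had 253 to 7838 expected counts in a library, which by counting alone gives a relative error of 6.29% at the lowest and 1.13% at the highest count. Epithelial and stromal genes marked the tissue: over the 6 libraries the basal keratin gene Krt5 ran from 3181 to 7708 TPM (a level per length), the eye transcription factor gene Pax6 from 181 to 238 TPM and the stromal keratocan gene Kera from 26.0 to 74.3 TPM. The corneal keratin gene Krt12 was low, at 7.23 to 10.9 TPM. Tissue content also differed between libraries. Summed CPM (counts scaled to library size by TMM) of 11 epithelial markers, all 11 with positive log2 fold changes, was 14930 to 17501 with spironolactone and 8490 to 11793 with vehicle. Of the skeletal muscle markers 6 of 8 were found, with sums of 105 to 196 against 361 to 826 CPM. The 6 blood endothelial markers, 0 of them with a positive log2 fold change, summed to 285 to 387 CPM with spironolactone and 413 to 550 CPM with vehicle (median log2 fold change -0.46). The 7 leukocyte markers, also 0 of them positive, summed to 468 to 532 against 523 to 637 CPM (median -0.38), with overlap. The sum of 5 retinal genes was 186 CPM in spironolactone replicate 3 and 2635 to 4419 CPM in the other 5 libraries, and that of 4 lens genes was 346 CPM in vehicle replicate 3 and 1.09 to 27.3 CPM elsewhere. The part of these differences in the results below was not tested.

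Promoters of both main phase groups are shown as background, and their part in the values below was not tested. RefSeq promoters in the GRCr8 build, each of 300 bases from 250 before to 50 after the annotated start, were at hand for 31 of the 42 listed genes, and the 2 with the smallest p of the S phase and of the G2 and mitotic genes are printed. Gmnn (chr17:40729584-40729883, plus strand) encodes geminin, Mcm7 (chr12:22163129-22163428, minus strand) a subunit of the replicative helicase, Kif23 (chr8:71320535-71320834, minus strand) a kinesin of the spindle midzone, and Ccnb1 (chr2:33655176-33655475, minus strand) cyclin B1. Each reads 5′ to 3′ along the gene, with capitals on any match to the CHR element (TTTGAA), the CCAAT box (CCAAT) or an E2F site (TTTCCCGC, TTTGGCGC, TTTCGCGC or TTTGCCGC) on either strand.
Gmnn: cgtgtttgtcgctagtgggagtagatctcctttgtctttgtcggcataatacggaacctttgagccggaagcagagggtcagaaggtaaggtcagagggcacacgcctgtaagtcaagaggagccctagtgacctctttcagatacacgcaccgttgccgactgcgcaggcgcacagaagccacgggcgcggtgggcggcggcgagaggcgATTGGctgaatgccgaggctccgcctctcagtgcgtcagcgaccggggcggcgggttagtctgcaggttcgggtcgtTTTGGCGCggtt
Mcm7: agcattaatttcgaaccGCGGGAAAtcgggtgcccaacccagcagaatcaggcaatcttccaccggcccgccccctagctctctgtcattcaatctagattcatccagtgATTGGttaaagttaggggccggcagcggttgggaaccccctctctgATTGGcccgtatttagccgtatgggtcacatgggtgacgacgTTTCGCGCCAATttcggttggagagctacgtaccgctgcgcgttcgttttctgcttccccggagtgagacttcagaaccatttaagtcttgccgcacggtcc
Kif23: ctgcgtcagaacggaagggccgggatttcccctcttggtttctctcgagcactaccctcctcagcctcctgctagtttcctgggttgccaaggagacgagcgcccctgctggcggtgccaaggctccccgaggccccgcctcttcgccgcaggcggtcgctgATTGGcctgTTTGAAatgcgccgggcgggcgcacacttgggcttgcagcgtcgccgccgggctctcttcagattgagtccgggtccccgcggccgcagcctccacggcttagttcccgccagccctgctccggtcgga
Ccnb1: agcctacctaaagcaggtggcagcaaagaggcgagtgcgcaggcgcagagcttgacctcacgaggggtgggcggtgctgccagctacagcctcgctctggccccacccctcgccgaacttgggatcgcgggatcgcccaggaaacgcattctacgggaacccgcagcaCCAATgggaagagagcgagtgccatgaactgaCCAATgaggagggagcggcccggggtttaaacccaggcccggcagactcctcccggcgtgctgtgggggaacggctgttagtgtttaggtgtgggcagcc
The Gmnn promoter held an E2F match at bases 39 to 46 after the start and a CCAAT box on the reverse strand at -39 to -35. In Mcm7 there were 2 E2F matches, at -233 to -226 and -52 to -45, the latter overlapping by its last base the nearest of 3 CCAAT boxes. Kif23 had a CHR match at -79 to -74 close to a reverse CCAAT box at -88 to -84, and Ccnb1 had 2 CCAAT boxes, at -82 to -78 and -50 to -46. Among members with a promoter, 8 of 10 S phase genes held an E2F match (80%), as did 1 of 17 G2 and mitotic genes (5.88%, Cdk1; the 17 include Ccnb2) and 2.14% of all 33469 promoters of that length. The CHR element was in 11 of 17 G2 and mitotic promoters (64.7%), 1 of 10 S phase promoters (10%, Mcm2) and 18.3% of all promoters. CCAAT boxes were in 14 of 17 (82.4%), 7 of 10 (70%) and 37.5%. These are matches of letters and say nothing of binding.

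No cell cycle gene passed the test between spironolactone and vehicle. edgeR called 0 of the 41 members at an adjusted p of 0.05, and 0% of all 14762 genes. At an unadjusted p under 0.05 it had 1 member higher, Gmnn, and 0 lower, where all genes had 12.2% higher and 10.4% lower. DESeq2 also called Gmnn alone of the 41, against 9.1% of all genes, and limma-voom called 0 members. The 95% intervals of 40 of the 41 log2 fold changes lay within a 1.5-fold change in either direction (97.6%), as did those of 65.9% of all genes. Members had at least 253 expected counts in each library, while the minimum count of the filter was 10. Intervals widen at low counts, so these shares are not for genes of like level. Of the members, Plk1 alone had an interval beyond 1.5-fold, at -0.04 to 0.60.

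What did vary was the level between libraries. Spironolactone replicate 3 had the highest CPM of the 6 libraries in 35 of 41 members (85.4%), where it was highest in 23.7% of all genes. Vehicle replicate 2 was the lowest in 29 of 41 members, and in 2520 of all 14762 genes. The count in spironolactone replicate 3 was 20 of 20 for G2 and mitotic genes, 12 of 13 for S phase genes, 3 of 5 for G1 genes and 0 of 3 for inhibitors. In TPM it was 32 of 41, and 2428 of all 14762 genes. For G2 and mitotic genes this library stood at 1.13 to 1.35 times the highest of the other 5, and for S phase genes 1.00 to 1.22 times. It is also the library with few retinal transcripts. The heat map of all members by library shows the column of this library and, apart from it, rows that go their own way: Gmnn, Ccne2, Ccnd2 and the inhibitors.

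**Figure D1:**
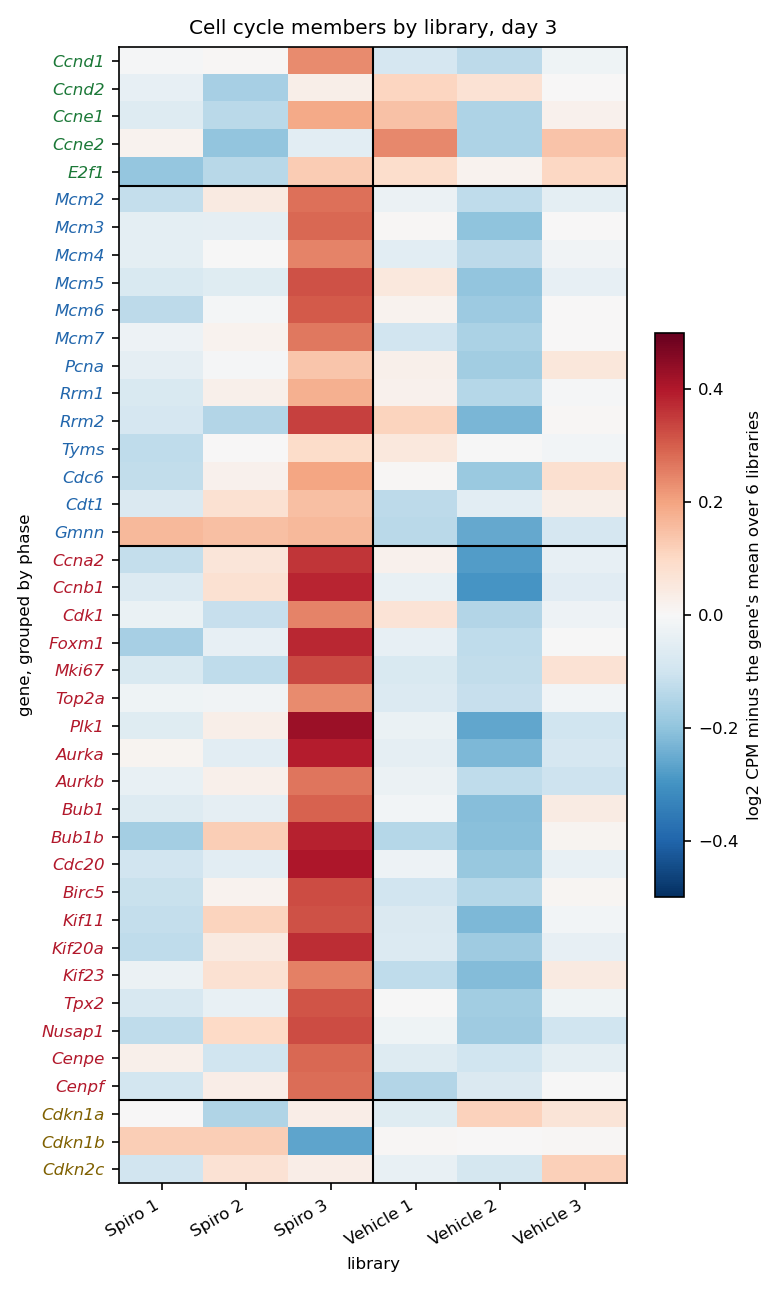
Heat map of 41 cell cycle genes (rows, grouped by phase) in the 6 day 3 libraries (columns); colour gives log2 CPM minus the gene's mean over the 6 libraries. Spironolactone replicate 3 is the highest library for all 20 G2 and mitotic genes and for 12 of 13 S phase genes, while Gmnn is high in all 3 spironolactone libraries.

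Genes of G1 and the G1/S transition did not move together. Their median log2 fold change was -0.12, with 1 of 5 positive, beside a median of -0.01 over all genes tested. It was -0.07 without spironolactone replicate 1, without spironolactone replicate 2 or without vehicle replicate 1. Ccnd1, the cyclin D1 gene, had 313, 316 and 371 CPM with spironolactone and 297, 288 and 309 CPM with vehicle, so the lowest spironolactone library lay just above the highest vehicle library. Its log2 fold change was 0.16 (SE 0.078, edgeR adjusted p = 0.268) and 0.08 without spironolactone replicate 3, and in TPM, at 127, 130 and 150 against 127, 123 and 130, the groups overlapped. Groups lay apart in CPM, spironolactone higher, in 2 of 41 members, Ccnd1 and Gmnn, against 16% of all genes, and spironolactone lower in 0 against 16.1%. Ccnd2, the gene of the related cyclin D2, had 52.4, 48 and 54.9 CPM with spironolactone and 58.1, 56.6 and 53.9 CPM with vehicle. These overlapped through vehicle replicate 3, while the TPM values, 61.8, 57.4 and 64.3 against 72.4, 70.1 and 65.5, did not. In TPM spironolactone was apart and lower in 2 of 41 members, Ccnd2 and Cdkn1a, against 23.1% of all genes, and apart and higher in 1, Gmnn, against 9.86%. The log2 fold change of Ccnd2 was -0.12 (SE 0.067, adjusted p = 0.327).

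The cyclin E genes, whose products act with CDK2 at the start of replication, were low. Ccne1 had 14.3, 13.6 and 17.0 CPM with spironolactone and 16.5, 13.4 and 15.1 CPM with vehicle, differing by -0.01 on the log2 scale (SE 0.12). Ccne2 had 22.9, 19.8 and 21.9 against 26.8, 20.4 and 25.0 CPM, differing by -0.16 (SE 0.12, adjusted p = 0.427). Both overlapped between the groups. E2f1, the gene of the transcription factor upstream of the replication genes, had 14.9, 15.5 and 18.7 CPM with spironolactone and 18.2, 17.3 and 18.4 CPM with vehicle. Spironolactone replicates 1 and 2 were below every vehicle library and replicate 3 above all of them, and the log2 fold change was -0.13 (SE 0.10, adjusted p = 0.451).

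The S phase genes had slightly higher values with spironolactone, and most of that came from 1 library. Values leaned to spironolactone in 12 of 13 genes (median log2 fold change 0.12, range -0.02 to 0.31); without spironolactone replicate 3 the median was 0.01, without spironolactone replicate 1 it was 0.19 and without vehicle replicate 2 it was 0.08. The 6 MCM genes, whose products form the ring of the replicative helicase, ran closely together, from a log2 fold change of 0.12 for Mcm6 to 0.17 for Mcm7. Mcm7 had 93.5, 96.5 and 114 CPM with spironolactone and 89.2, 85.4 and 95.3 CPM with vehicle (adjusted p = 0.288). Mcm5 had 77.8, 78.6 and 102 against 85.1, 71.5 and 79.7 CPM, where spironolactone replicates 1 and 2 lay within the vehicle range.

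Pcna, the sliding clamp of DNA polymerase and the member with the highest level (213 TPM on average), had 136, 139 and 154 CPM with spironolactone and 142, 124 and 145 CPM with vehicle. Its log2 fold change of 0.06 (SE 0.081) had a 95% interval of -0.13 to 0.25. Enzymes of nucleotide supply had similar values. Rrm1 and Rrm2, both subunits of ribonucleotide reductase, were each at a log2 fold change of 0.09 (SE 0.080 for Rrm1, 0.15 for Rrm2), and Tyms, thymidylate synthase, at -0.02 (SE 0.071). Rrm2 spread widely between libraries, from 58.8 to 82.5 CPM with spironolactone and from 55.5 to 70.2 CPM with vehicle. The loading factors Cdc6 and Cdt1 were at 0.07 (SE 0.11) and 0.11 (SE 0.090), and their groups overlapped.

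Gmnn was the member with the smallest p and the S phase member that did not follow spironolactone replicate 3. It had 38.3, 38.0 and 38.3 CPM with spironolactone and 31.2, 28.7 and 32.3 CPM with vehicle, or 55.9, 56.1 and 55.4 TPM against 48.1, 44.0 and 48.6 TPM. On both scales every spironolactone library lay above every vehicle library, and the spironolactone libraries were close to equal. The log2 fold change was 0.31 (SE 0.064), a 1.24-fold difference with a 95% interval of 0.16 to 0.46 on the log2 scale. Its edgeR adjusted p of 0.0747 missed the threshold, as did limma-voom, while DESeq2 gave 0.0137. The lowest edgeR adjusted p over all genes tested was 0.0649. With each library left out in turn the log2 fold change was 0.28 to 0.37. edgeR's adjusted p was 0.0429 without vehicle replicate 3, in a fit that called 5.27% of the genes tested in it. With any other single library left out it was 0.0951 to 0.261. Geminin binds and blocks CDT1, and the ratio of Gmnn to Cdt1 in TPM was 5.25, 4.70 and 4.49 with spironolactone and 4.47, 3.89 and 4.13 with vehicle. The ratios did not overlap, but spironolactone replicate 3 was barely above vehicle replicate 1. How often ratios of other gene pairs lie apart was not measured.

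**Figure D2:**
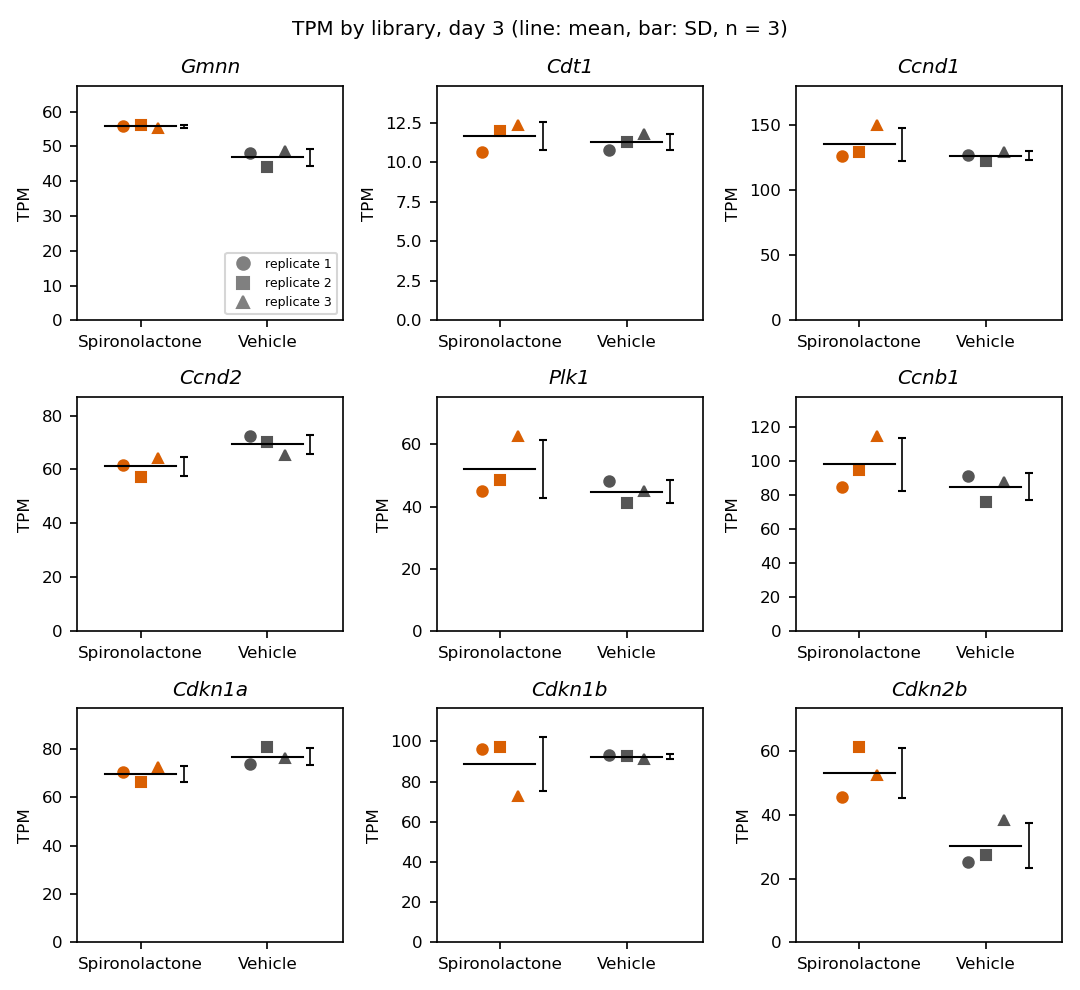
TPM (vertical axes, from 0) of 9 genes in the 3 spironolactone and 3 vehicle libraries of day 3; symbols mark replicates, lines means and bars the SD. Gmnn, at 55.4 to 56.1 against 44.0 to 48.6 TPM, and Cdkn2b separate the groups upward. Ccnd2 and Cdkn1a do so downward in TPM but not in CPM. Plk1 and Ccnb1 overlap between the groups and are highest in spironolactone replicate 3.

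The genes of G2 and mitosis all had positive log2 fold changes, and none had groups that lay apart. Over 20 genes the median was 0.18 and the range 0.07 to 0.28, where 48.4% of all genes were positive. Without spironolactone replicate 3 the median was 0.05, and without both replicates 3 it was 0.08 with 18 of 20 positive. With any other single library left out the median was 0.15 to 0.26. Median log2 CPM of these genes, centred on each gene's mean, was 0.32 in spironolactone replicate 3, -0.08 and 0.02 in replicates 1 and 2, and -0.04, -0.18 and -0.02 in the vehicle libraries. Spironolactone replicates 1 and 2 lay within or beside the vehicle range.

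Mitotic entry is driven by cyclin B1 with CDK1, and by the kinases PLK1 and Aurora A. Ccnb1 had 83.0, 91.8 and 113 CPM with spironolactone and 84.8, 70.9 and 83.8 CPM with vehicle, differing by 0.27 on the log2 scale (SE 0.13, adjusted p = 0.268). Plk1 had 63.6, 67.6 and 89.1 against 64.8, 55.4 and 61.8 CPM, the largest log2 fold change of the group at 0.28 (SE 0.13, adjusted p = 0.276). In both, spironolactone replicate 1 was below vehicle replicate 1 and replicate 3 stood apart above. Without spironolactone replicate 3 the log2 fold change was 0.13 for Ccnb1 and 0.11 for Plk1. Cdk1 had 79.6, 75.2 and 96.5 against 85.4, 73.5 and 80.0 CPM and the smallest log2 fold change, 0.07 (SE 0.10). Aurka, Aurora A, had 31.9, 30.5 and 41.5 CPM against 30.7, 27.1 and 29.8 CPM (log2 fold change 0.25, SE 0.13). Ccna2, cyclin A2 of S and G2 phase, was at 0.21 (SE 0.13), and Foxm1, the transcription factor of this programme, at 0.13 (SE 0.14).

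Genes of the spindle, its checkpoint and cytokinesis also had their highest value in spironolactone replicate 3. Kif23 had 128, 138 and 156 CPM with spironolactone and 120, 112 and 135 CPM with vehicle, and its log2 fold change of 0.20 (SE 0.095, adjusted p = 0.265) was 0.12 without spironolactone replicate 3, 0.29 without vehicle replicate 3 and 0.20 without both. Cdc20, an activator of the anaphase-promoting complex, had 74.6, 76.8 and 105 against 78.2, 70.0 and 77.7 CPM, and its log2 fold change went from 0.18 to 0.03 without both replicates 3. Spironolactone replicate 3 had 1.35 times the next library in Cdc20, the widest such gap of any member. The checkpoint kinase gene Bub1b, at 0.24 (SE 0.14), and Bub1, at 0.13 (SE 0.12), overlapped between groups, as did Aurkb and Birc5 of the chromosomal passenger complex, at 0.18 (SE 0.087) and 0.17 (SE 0.12). The spindle kinesin gene Kif11 had 0.22, the cytokinesis kinesin gene Kif20a 0.21, and the spindle assembly genes Tpx2 and Nusap1 0.14 and 0.21. The kinetochore genes Cenpe and Cenpf had 0.15 and 0.16.

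Of the general proliferation markers, Mki67 had 244, 235 and 324 CPM with spironolactone and 244, 236 and 270 CPM with vehicle. Replicates 1 and 2 of both treatments were nearly equal and both replicates 3 were higher. The log2 fold change was 0.10 (SE 0.13), with a 95% interval of -0.21 to 0.41, and it was 0.00 without both replicates 3. Top2a, the topoisomerase that untangles sister chromatids, had 216, 216 and 259 against 209, 202 and 217 CPM, differing by 0.13 on that scale (SE 0.081).

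**Figure D3:**
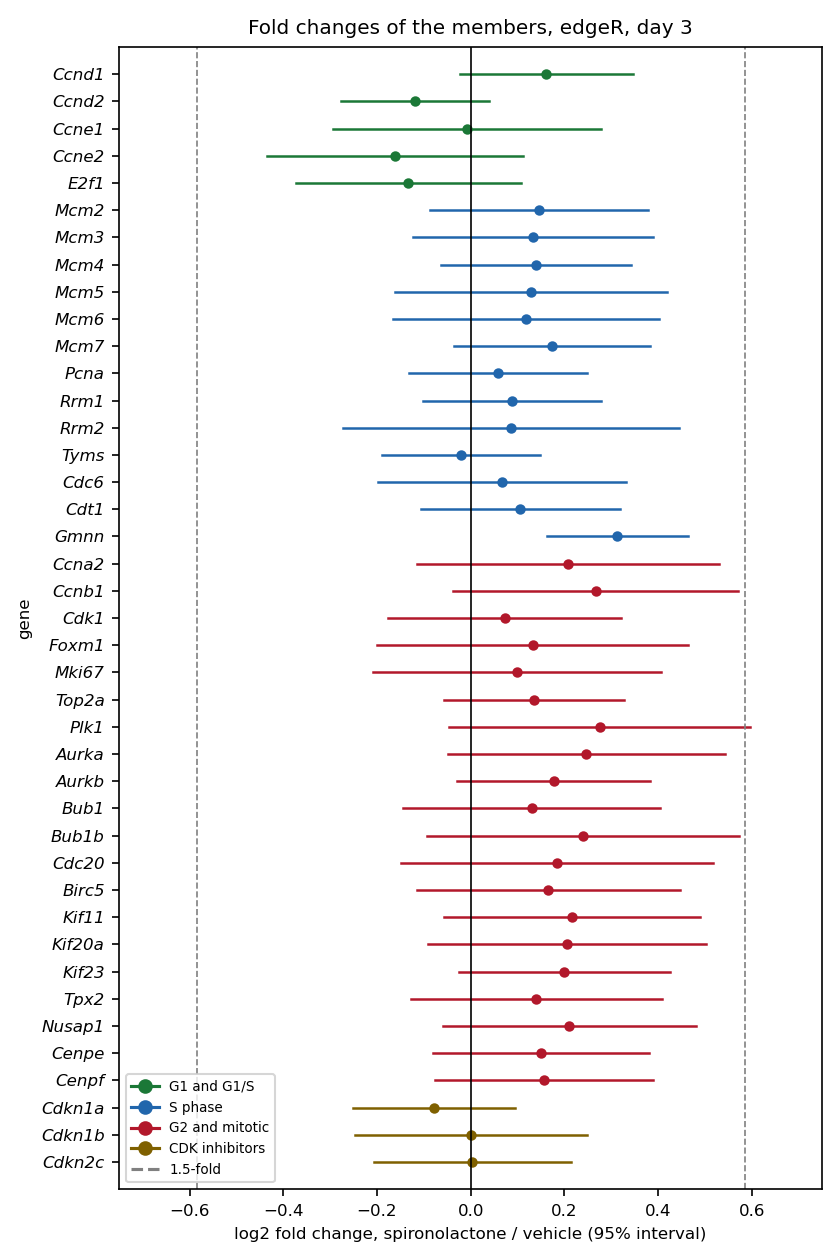
Log2 fold change of spironolactone over vehicle for 41 members (points) with 95% intervals from edgeR (bars), coloured by phase; dashed lines mark 1.5-fold. The Gmnn interval, 0.16 to 0.46, is the only one that leaves out 0, and the Plk1 interval alone crosses a 1.5-fold line.

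The CDK inhibitor members had a median log2 fold change of 0.00. Cdkn1a, the p21 gene and a target of p53, had 60.2, 54.1 and 61.5 CPM with spironolactone and 57.6, 65.1 and 62.8 CPM with vehicle, and its log2 fold change was -0.08 (SE 0.073, adjusted p = 0.538). In TPM its groups did not overlap, at 70.5, 66.2 and 72.7 against 73.7, 80.8 and 76.2. Cdkn1b, the p27 gene of resting cells, had 104, 104 and 79.5 CPM with spironolactone and 95.8, 95.6 and 95.7 CPM with vehicle. The vehicle libraries were close to equal, and spironolactone replicate 3 had the lowest Cdkn1b. That library also had the highest mitotic levels and few retinal transcripts, and the part of either in this value was not tested. The log2 fold change of Cdkn1b was 0.00 (SE 0.10) with all libraries and 0.12 without both replicates 3. Cdkn2c, the p18 gene and an inhibitor of CDK4 and CDK6, was at 0.00 (SE 0.089), with 15.8, 17.7 and 17.3 against 16.4, 15.9 and 18.3 CPM.

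Without both replicates 3, Gmnn had a log2 fold change of 0.35 (edgeR adjusted p = 0.0486, the 1 member called), where 7.02% of the 14817 genes tested in that fit were called. The medians of the S phase and mitotic genes were 0.05 and 0.08. Ccnd2 was at -0.19 (adjusted p = 0.170), E2f1 at -0.22 (adjusted p = 0.225), Ccne1 at -0.10 and Tyms at -0.08, while Cdkn1b was at 0.12 and Cdkn2c at 0.06. That fit rests on 2 libraries per treatment.

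**Figure D4:**
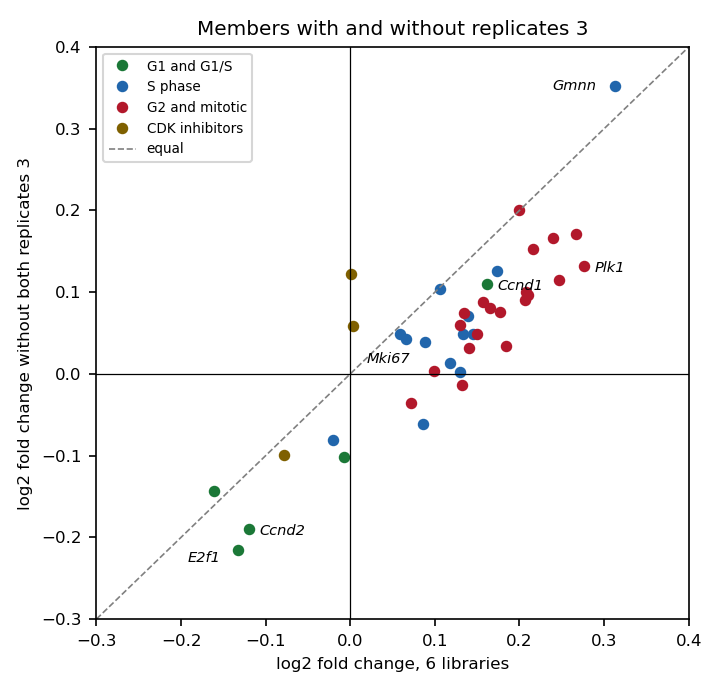
Log2 fold change of each member with all 6 libraries (horizontal) and without replicate 3 of both treatments (vertical), coloured by phase; the dashed line marks equal values. Plk1 goes from 0.28 to 0.13 and Mki67 from 0.10 to 0.00, while Gmnn is 0.31 and 0.35.

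Other genes of the cycle came from 4 lists that hold none of the members. edgeR called 0 of their genes. The counts at an unadjusted p under 0.05 that follow stand beside 12.2% higher and 10.4% lower over all genes. Those highest in spironolactone replicate 3 stand beside 23.7%, and those positive beside 48.4%. The genes named are the 3 of each list with the smallest edgeR p. Of 54 further mitosis genes tested, 48 were positive (median log2 fold change 0.16), and 52 were highest in spironolactone replicate 3. At an unadjusted edgeR p under 0.05, 6 were higher and 0 lower. Without both replicates 3, 38 of them were positive (median 0.09). Of the mitosis genes, Sgo1, the protector of centromere cohesion, had 18.5, 19.9 and 21.8 CPM with spironolactone and 16.6, 14.8 and 16.6 CPM with vehicle (log2 fold change 0.33, SE 0.092, adjusted p = 0.109). The spindle genes Ckap2l and Kif18b were at 0.33 (SE 0.096) and 0.40 (SE 0.11), with edgeR adjusted p of 0.114 and 0.115. The groups of Kif18b lay apart in CPM, spironolactone higher, as in 16% of all genes, and overlapped in TPM. Of 46 replication genes, 35 were positive (median 0.08), and 34 were highest in spironolactone replicate 3. At an unadjusted edgeR p under 0.05, 3 were higher and 1 lower. Without both replicates 3, 28 of them were positive (median 0.04). Prim1, the primase gene, had a log2 fold change of 0.21 (SE 0.063), Lig1, DNA ligase I, 0.24 (SE 0.098) and Orc2, of the origin recognition complex, -0.16 (SE 0.059).

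Among 27 regulators of the G1 and G2 transitions, 17 were positive (median 0.04), and 16 were highest in spironolactone replicate 3. At an unadjusted edgeR p under 0.05, 1 was higher and 2 lower. Without both replicates 3, 16 of them were positive (median 0.02). Cdk6, the kinase partner of the D cyclins, had 30.5, 31.0 and 37.8 CPM with spironolactone and 24.6, 22.6 and 25.5 CPM with vehicle. The groups of Cdk6 lay apart on both scales, where 16% of all genes did so upward in CPM and 9.86% in TPM. Its log2 fold change was 0.45 (SE 0.10), with an edgeR adjusted p of 0.0772 and a DESeq2 adjusted p of 0.0110. The third D cyclin gene, Ccnd3, was at -0.25 (SE 0.10, edgeR adjusted p = 0.212). Without both replicates 3 it was at -0.41, where edgeR called it (adjusted p = 0.0187) and 7.02% of all genes tested. The repressor gene E2f6 was at -0.15 (SE 0.052, adjusted p = 0.170).

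Of 17 further inhibitors and p53 targets tested, 11 were positive (median 0.09), and 2 were highest in spironolactone replicate 3. At an unadjusted edgeR p under 0.05, 3 were higher and 3 lower. Without both replicates 3, 12 of them were positive (median 0.13). Cdkn2b, the p15 gene, an inhibitor of CDK4 and CDK6 that TGF-beta induces, had 51.9, 68.1 and 59.0 CPM with spironolactone and 27.2, 29.7 and 41.6 CPM with vehicle. Every spironolactone library was above every vehicle library, as in 16% of all genes in CPM. The log2 fold change was 0.86 (SE 0.18), with an adjusted p of 0.0758 by edgeR and 1.63e-04 by DESeq2. Without vehicle replicate 3, the highest of its group, the log2 fold change was 1.09 with an edgeR adjusted p of 0.0156. That fit called 5.27% of the genes tested in it. With any other single library left out the log2 fold change was 0.75 to 0.95 and the edgeR adjusted p 0.108 to 0.268. The stress response genes Gadd45a and Gadd45b had lower values, at -0.38 (SE 0.11, edgeR adjusted p = 0.121) and -0.40 (SE 0.13, adjusted p = 0.141). Their groups did not overlap, where 16.1% of all genes lay apart downward in CPM and 23.1% in TPM. Without both replicates 3 edgeR called Gadd45a (log2 fold change -0.39, adjusted p = 0.0439) and not Gadd45b (adjusted p = 0.0774). That fit called 7.02% of the genes tested in it. Cdkn2a was under the expression filter, and Cdkn2d was not found by its symbol.

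Levels compared per length spread widely within each phase. By mean TPM over the 6 libraries Pcna (213), Ccnd1 (131) and Cdk1 (120) led, followed by Rrm1 (102) and Rrm2 (98.3), and the lowest were Ccne1 (12.6), Ccne2 (11.9), Cdt1 (11.5), E2f1 (10.6) and Cdc6 (10.4). Ccnd1 and Cdk1 overlapped in their ranges, 123 to 150 and 109 to 137 TPM, and so did neighbours among the 5 lowest genes. Pcna, at 194 to 227 TPM, overlapped with no other member. The p27 gene Cdkn1b, at 90.6 TPM on average, and the p21 gene Cdkn1a, at 73.3 TPM, were among the higher members. Ccnd1 exceeded Ccnd2 in TPM 2.05, 2.26 and 2.34 times with spironolactone and 1.76, 1.75 and 1.98 times with vehicle, ratios that did not overlap. Neither gene was called, and how often ratios of other gene pairs lie apart was not measured. Single genes lay apart in TPM, spironolactone higher, in 9.86% and lower in 23.1% of all genes.

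Summed over the phases, S phase members took 791, 830 and 953 TPM with spironolactone and 871, 768 and 849 TPM with vehicle, and G2 and mitotic members 908, 970 and 1188 against 982, 877 and 966 TPM. The ratio of the mitotic to the S phase sum was 1.15, 1.17 and 1.25 with spironolactone and 1.13, 1.14 and 1.14 with vehicle. It did not overlap, by a small margin except in replicate 3, and no such ratio of other gene sets was measured beside it. Epithelial marker content was 14930, 17024 and 17501 CPM in spironolactone replicates 1, 2 and 3 and 9168, 8490 and 11793 CPM in the vehicle libraries. Per 1000 CPM of epithelial markers, G2 and mitotic members had 120, 110 and 133 CPM with spironolactone and 197, 197 and 158 CPM with vehicle. The S phase members had 70.7, 65.0 and 74.5 against 121, 117 and 93.5 CPM. The S phase and the G2 and mitotic sums thus overlapped between groups on the CPM scale and were lower relative to this marker sum. Log2 fold changes of the 11 markers ran from 0.20 for Pax6 to 0.88 for Krt5, the marker with the highest CPM. The ratios therefore depend on which markers fill the sum. Which cells the cell cycle transcripts came from was not measured.

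**Figure D5:**
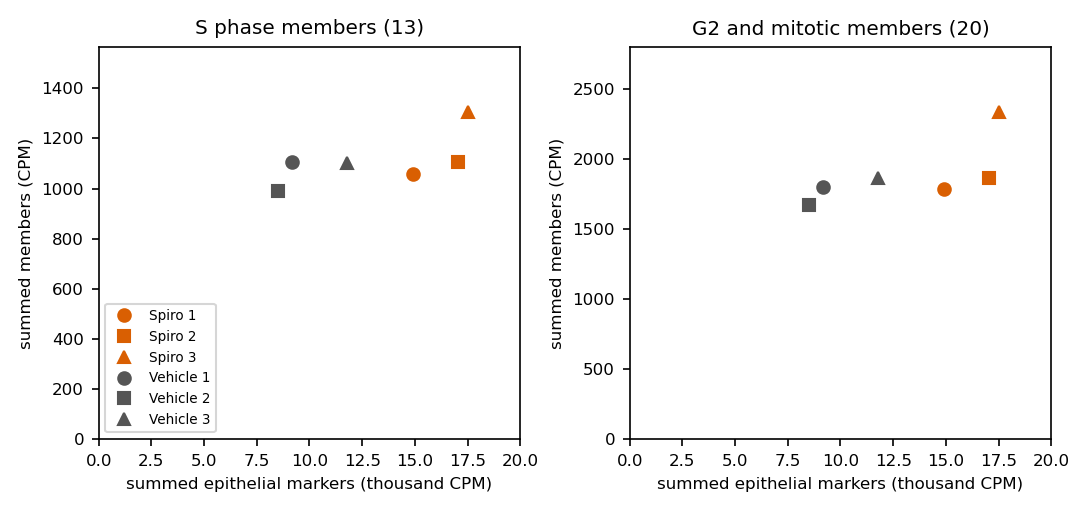
Summed CPM of 13 S phase and 20 G2 and mitotic members (vertical, from 0) against the summed CPM of 11 epithelial markers (horizontal, in units of 1000 CPM) in the 6 libraries. Spironolactone libraries lie to the right, at 14930 to 17501 CPM of markers, and replicate 3 alone lies clearly above the rest.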

How the data were processed

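RNA-seq files of 6 day 3 libraries were used; groups and replicate numbers came from the sample titles. Per the file headers, the deposited expected counts are estimated reads per gene and the deposited TPM values are scaled to library size and effective length; the column layout is that of RSEM. RSEM 1.2.28, STAR 2.5.3a, fastp, edgeR 3.28.0, Picard, DRAGEN and DESeq2 1.26.0 are named without role, with builds rn6 and Rnor_6.0, per the submitters' processing notes. No source used here says whether strand entered the counting. The 7 day 7 files pair no gene ID with a symbol and were not used. 1 row without a gene name (0.12% to 0.181% of counts) was left out.

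Expected counts were rounded, filtered with edgeR's expression filter (minimum count 10), scaled by TMM and tested with edgeR 4.0.16 (quasi-likelihood, robust, R 4.3.3), with Benjamini-Hochberg adjustment over 14762 genes at 0.05. SEs were taken as |log2 fold change| over root F. Alternatives were DESeq2 1.42.0, limma-voom (limma 3.58.1), RLE scaling, other filters, limma on log2(TPM + 0.5), a replicate block, and libraries left out. The tests were checked on simulated data, where a larger share of DESeq2's calls was false than of edgeR's or limma-voom's. Those counts were drawn for each gene independently with dispersions estimated by edgeR. Their false shares therefore need not hold for these libraries. Libraries of a group differed beyond sampling noise (chi-square per gene 7.9 to 23.2 over 6 pairs). The members, gene lists and tests were chosen with earlier results of these data known. All members could be named; of each further list the 3 genes with the smallest p were named, and of each marker list its leading and defining genes.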

Additional observations from a re-analysis of the deposited data

How the results depend on the processing

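edgeR called 0 genes with all libraries, 1344 were called by DESeq2 (which gave no adjusted p for 864 genes), 148 with no filter and 1040 with both replicates 3 left out; leaving out 1 library gave 0 to 781 (2 without spironolactone replicate 3, 40 without vehicle replicate 1, 781 without vehicle replicate 3). Of the members only Gmnn was among these calls, by DESeq2, without vehicle replicate 3 and without both replicates 3. The median of the CDK inhibitors was -0.070 by limma on log2 TPM, 0.058 without both replicates 3 and -0.062 to 0.015 with 1 library left out. On the TPM scale the median of all genes was -0.06 in place of -0.01.

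Some members changed direction. With 1 library left out, log2 fold changes ran from -0.11 to 0.073 for Ccne1, -0.020 to 0.14 for Cdc6, -0.042 to 0.15 for Cdk1, -0.062 to 0.12 for Cdkn1b, -0.031 to 0.083 for Cdkn2c, -0.045 to 0.24 for Foxm1, -0.010 to 0.20 for Mcm5, -0.018 to 0.21 for Mcm6, -0.060 to 0.18 for Mki67, -0.083 to 0.18 for Rrm2 and -0.072 to 0.036 for Tyms. Without both replicates 3, Cdk1 was at -0.035, Foxm1 at -0.013 and Rrm2 at -0.061. By limma on log2 TPM, Cdkn1b was at -0.070, Cdkn2c at -0.056 and Pcna at -0.0022. Cdkn1b was also at -0.010 by limma-voom, -9.0e-04 with no filter and -0.0022 with 1 CPM in 3 libraries. The cause of these turns was not tested.

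With the replicate number as a block, edgeR called 0 genes and Cdkn1b was at -0.0099. Deviations of same-numbered libraries correlated at -0.0845 to 0.0898, and those of other pairs at -0.106 to 0.0497. With 3 libraries per treatment, such values cannot show whether same-numbered libraries shared animals, days or batches. The labels do not say so either.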
